A study of Mus musculus with 195 samples.

Results

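The transcripts of 10 genes of the machinery that cuts the pre-mRNA and adds and binds its poly(A) tail were followed in mouse stem cells: Cpsf2, Cpsf3, Fip1l1, Cstf2, Cstf3, Nudt21, Cpsf6, Papola, Pabpn1 and Pabpc1. The members were taken by name, through their Ensembl identifiers, from the table of molecule counts per gene, and all 10 were found among its 19736 genes. In 107 single cells they held 1592 of 746922 gene molecules. Of these, 978 were Pabpc1.

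Polyadenylation sites were measured in single cells by BATSeq, a method in which the oligo-dT primer carries a cell barcode and a unique molecular identifier, so that each 3′ end counted stands for 1 captured transcript molecule. ESC-2i were 46C mouse embryonic stem cells, a line with a Sox1-GFP reporter derived from E14tg2a, kept in serum-free medium with 1 µM PD0325901 (an inhibitor of the kinase MEK), 3 µM CHIR99021 (an inhibitor of the kinase GSK3) and 10 ng/ml LIF. ESC-FCS were the same line in 10% FBS and 10 ng/ml LIF. NSC were neural stem cells differentiated from this line, sorted once for the GFP reporter during their derivation, and grown with N2, B27, EGF and bFGF, without inhibitors, serum or LIF. The ESC-FCS control cells and the ESC-FCS pool of 48 cells had the medium of ESC-FCS, and the 2 ESC-2i pools of 48 cells had the medium of ESC-2i. All cells were sorted as small cells of G1 DNA content. No label names separate cultures, so each population stands as 1 sample, no test between populations was possible, and all intervals given here cover counting error only.

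After cells under 1000 gene molecules were left out, 33 ESC-2i, 33 ESC-FCS, 41 NSC and 42 control cells remained, each population in 2 libraries of 14 to 21 cells. Single cells held 1079 to 21050 gene molecules in the 3 main populations, and the pools held 179155, 479483 and 494799. Of 8 embryonic stem cell markers, all 8 were seen in ESC-2i and in ESC-FCS, with a summed level of 29.7 and 19.9 molecules per 10000 gene molecules, and in NSC the sum without Sox2 was 0.132. Of 8 neural stem cell markers, which include Fabp7 and Olig2, all 8 were seen in NSC, with a summed level of 51.6. In ESC-2i and in ESC-FCS 7 of the 8 were seen, with sums of 3.56 and 3.75. Sox2, which is on both lists, was at 1.12 in NSC, below 1.63 in ESC-2i and 2.29 in ESC-FCS. The sums therefore went with the labels. The 2 ESC-2i pools stood apart: they were made from purified RNA and not from lysed cells, held no spike-in molecules and had 4.12 reads per molecule against 12.8 in ESC-2i cells. Of 4 markers of other cells they held 225 molecules of Tubb3, a neuronal tubulin, 10 of Dcx, and 0 of Gfap and of Col1a1. Their summed level of embryonic stem cell markers was 34.3, with 7 of the 8 seen, and that of neural stem cell markers was 4.61. Medium and preparation cannot be told apart in them, and their values are given beside those of the cells.

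Most mRNA 3′ ends are made in a single coupled reaction. CPSF, the cleavage and polyadenylation specificity factor, recognises the hexamer AATAAA (in DNA letters) and cuts downstream of it. CstF, the cleavage stimulation factor, binds sequence rich in T or GT after the cut, and CFIm, the cleavage factor of Nudt21 and Cpsf6, binds TGTA upstream and influences which of several sites is used. Poly(A) polymerase then extends the tail, which is covered by the nuclear protein Pabpn1 and, in the cytoplasm, by Pabpc1. Changes in the amounts of these factors are known to shift many genes between short and long 3′ UTRs, and several of the factors are encoded by mRNAs that themselves have more than 1 site.

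The windows before the sites at which these mRNAs ended are shown first because they hold the hexamer recognised by CPSF. Cpsf2, Cpsf3 and Fip1l1 belong to that complex, while Wdr33, a subunit of it that touches the hexamer, is not among the members. Each is 30 bases on the strand of the gene, 5′ to 3′, from GENCODE transcripts on GRCm38, and ends at the site or, for Cpsf2, Cstf2 and the most distal site of Cpsf6, at the annotated transcript end 1 to 2 bases before it. Capitals mark AATAAA or ATTAAA.
Cpsf2, chr12:102006395-102006424, plus strand: tatttcgctaataAATAAAagatgctgagc
Cpsf3, chr12:21314803-21314832, plus strand: tctgttcttcaAATAAAataaccttagttt
Fip1l1, chr5:74596115-74596144, plus strand: caaAATAAAagtgtgcatttttttgtgtta
Cstf2, chrX:134086790-134086819, plus strand: ctgtcgtggattcAATAAAtattttaaaag
Cstf3, chr2:104665388-104665417, plus strand: aagggtcctttgaaaggAATAAAaggacct
Nudt21, chr8:94015499-94015528, minus strand: actgttatttcAATAAAaatatttaaaact
Cpsf6, second site, chr10:117349040-117349069, minus strand: gtagtgttgtAATAAActgtttatggggct
Cpsf6, most distal site, chr10:117344673-117344702, minus strand: tcttgtattgaaAATAAAaacaaagttttg
Papola, first site, chr12:105809673-105809702, plus strand: agattatattacAATAAAattgattgtaga
Papola, last site, chr12:105838909-105838938, plus strand: ccattgaaaacacAATAAAaaaaaaaacag
Pabpc1, main site, chr15:36595667-36595696, minus strand: taaaattcttgctttAATAAAaattcctta

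These windows belong to the sites with at least 10 molecules in the 107 cells, or the most used site of the gene. There were 21 such sites, and 20 had a transcript window; the site of Pabpn1 lies 746 nt past the last annotated end and is named only. AATAAA stood within the 50 bases before 13 of the 20 sites (65.0%), and it did so at 66.7% of the 8199 sites of all genes with at least 10 molecules and a window. ATTAAA without AATAAA stood before 2 (10.0%, against 15.6% of all), and neither before 5 (25.0%, against 17.8%). TGTA, the letters bound by CFIm, occurred at least once within 100 bases of 11 of 19 sites (57.9%, against 54.4% of all) and at least 2 times at 5 (26.3%, against 20.4%). These were searched on the strand of the gene only. The shares for AATAAA and TGTA were thus close to those of all genes. The 5 sites with neither hexamer were 1 in Papola and 4 in Pabpc1, and all 5 were followed by at least 10 A in the next 20 bases. Over all genes, 1456 sites had neither hexamer, and 991 of them had 20 transcript bases after the site. Of these 991, 26.7% had this property. A site near the gene end and one in an upstream exon of Pabpc1 are shown, with the last 10 bases before the cut in lower case and the 20 bases after it in capitals.
Pabpc1, chr15:36595867-36595896, minus strand: aaaaaatacaAAAAAATAGTAAAATATAAA
Pabpc1, chr15:36608884-36608913, minus strand: acatttattaTTAAAAAATCCAAAAAAAAT

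Pabpc1 (chr15:36595661-36609668), the cytoplasmic poly(A) binding protein, was by far the most abundant member, at rank 83 of 15399 detected genes for ESC-2i, 81 of 14316 for ESC-FCS and 90 of 12484 for NSC. Levels are molecules per 10000 gene molecules, and since a transcript gives 1 count whatever its length, they compare between genes without a length correction. The other members lay between 0.190 (Nudt21) and 1.57 (Cpsf3) in ESC-2i, between 0.353 and 2.07 in ESC-FCS, and between 0.198 (Pabpn1) and 2.11 (Papola) in NSC. Below Pabpc1 the order was shallow: the exact Poisson intervals of neighbours in the order overlapped in each of the 3 populations. The summed level of the 9 members without Pabpc1 was lowest in ESC-2i at 6.81 (6.00 to 7.71), followed by ESC-FCS at 9.35 (8.14 to 10.7) and NSC at 9.94 (8.42 to 11.7). The 2 libraries gave 6.36 and 7.22 in ESC-2i, 9.37 and 9.33 in ESC-FCS, and 10.8 and 9.02 in NSC, so both ESC-2i libraries were below all 4 others. The separate libraries did not share this order, since the sum was 11.3 in the control cells, 14.3 in the ESC-FCS pool, and 11.8 and 15.2 in the ESC-2i pools.

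**Figure D1:**
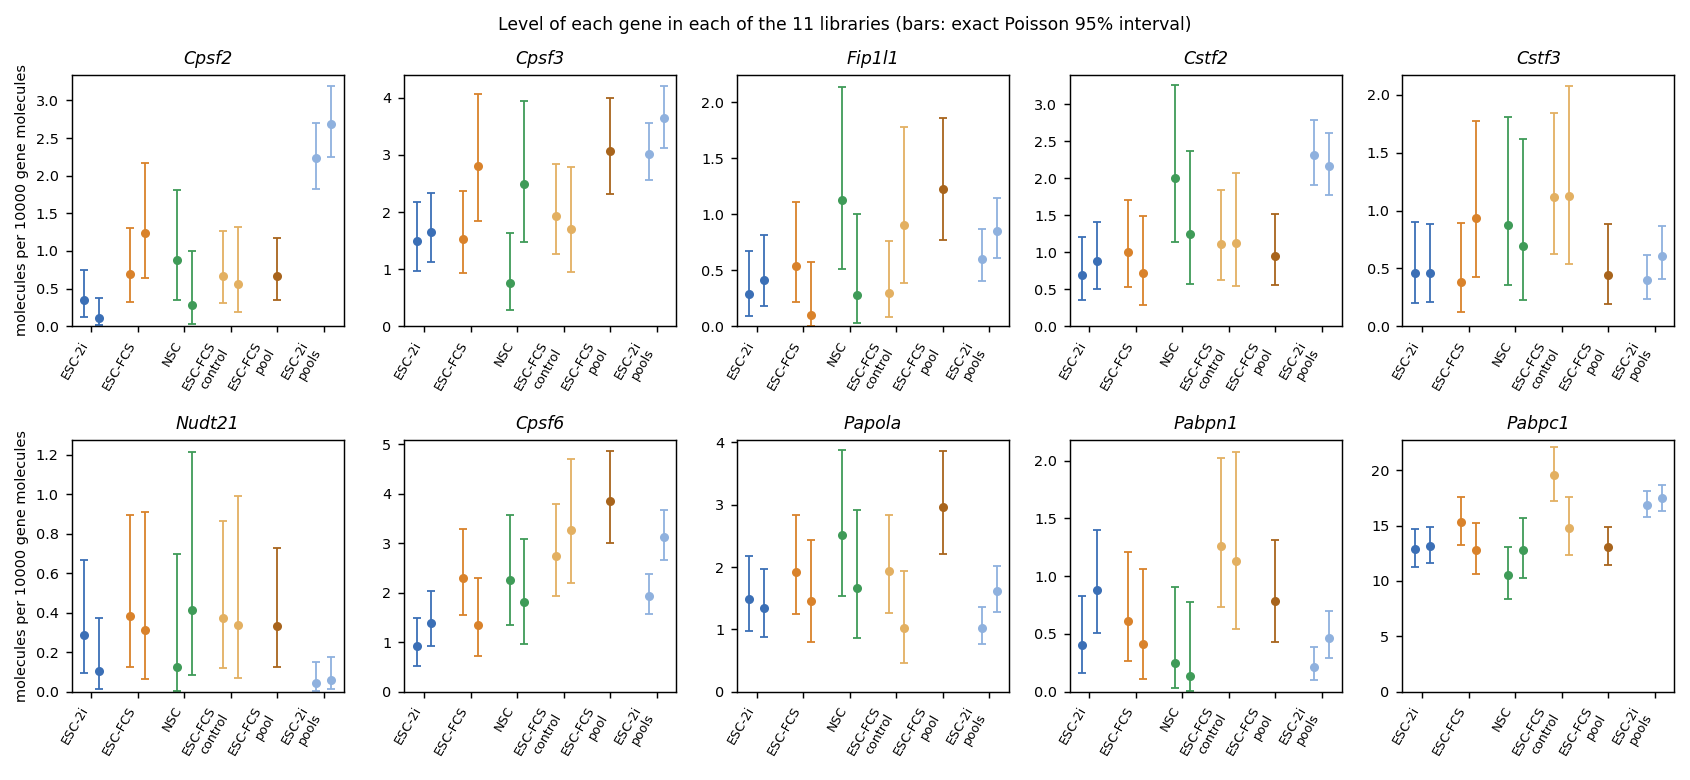
Level of each of the 10 genes (y axis, molecules per 10000 gene molecules, linear from 0, own scale per panel) in each of the 11 libraries; points are libraries and bars exact Poisson 95% intervals. For Cpsf2 the ESC-2i pools were the highest libraries, at 2.23 and 2.69, and ESC-2i library 2 was the lowest, at 0.103.

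A member was called between 2 populations when its pooled level differed by at least 1.5-fold and each library of one population was above each of the other, with at least 20 molecules in the 2 populations together. This is a rule of size, and it called many genes. Between ESC-FCS and ESC-2i, 36.7% of 5007 genes passed it in either direction, 15.2% as higher in ESC-FCS and 21.5% as lower. Of the 9 members that could enter, 1 was higher (Cpsf2) and 0 were lower. Between NSC and ESC-2i, 53.9% of 4803 genes were called, 24.7% higher and 29.3% lower, and of 8 members 3 were higher (Cpsf6, Cstf2 and Cstf3) and 1 was lower (Pabpn1). Between NSC and ESC-FCS, 50.0% of 3600 genes were called, 26.3% higher and 23.6% lower, and of 7 members 1 was higher (Cstf2) and 0 were lower. Counted in either direction, the share of members called was below that of all genes in each comparison, but in NSC against ESC-2i it was close to it. There the share called higher, 3 of 8, was above that of all genes, and the share called lower, 1 of 8, was below it. With 2-fold in place of 1.5-fold, 1 member (Cpsf2), 2 (Cstf2 and Pabpn1) and 0 were called in the 3 comparisons, against 20.9%, 40.6% and 36.7% of all genes. Of these genes 7.31%, 17.7% and 19.4% were higher, and 13.6%, 22.9% and 17.3% were lower. The median log2 ratio of the members was 0.29 in ESC-FCS against ESC-2i (−0.07 over all genes), 0.68 in NSC against ESC-2i (−0.05) and 0.11 in NSC against ESC-FCS (0.05). The 3 comparisons share their populations and are not independent.

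**Figure D2:**
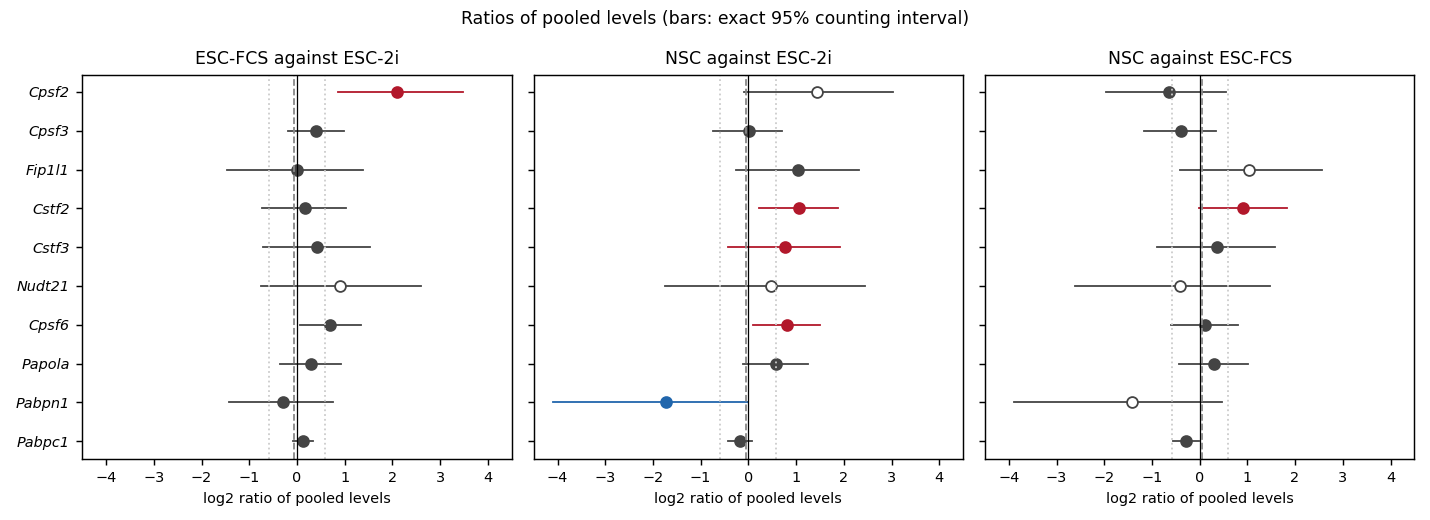
Log2 ratio of pooled levels of the 10 genes (x axis) in the 3 comparisons; points are the ratio, bars the exact 95% counting interval, open points genes under 20 molecules, red called higher and blue called lower, the dashed line the median of all genes and the dotted lines 1.5-fold. Cpsf2 in ESC-FCS against ESC-2i lies at 2.09 and Pabpn1 in NSC against ESC-2i at −1.72, and most other intervals include 0.

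Among the CPSF subunits, Cpsf2 (CPSF100; chr12:101975988-102006424), a catalytically inactive relative and partner of the endonuclease, showed the widest range. It gave 6 and 2 molecules in the ESC-2i libraries (levels 0.344 and 0.103), 9 and 12 in ESC-FCS (0.691 and 1.24), and 7 and 2 in NSC (0.877 and 0.277). Both ESC-FCS libraries were above both ESC-2i libraries, and the NSC libraries lay on either side of ESC-2i library 1. The ESC-FCS level was 4.27 times that of ESC-2i (1.82 to 11.1), on 21 and 8 molecules. In the separate libraries the order was the opposite: control cells gave 0.669 and 0.565, the ESC-FCS pool 0.670, and the ESC-2i pools 2.23 and 2.69, on 107 and 133 molecules. The ratio of the ESC-FCS to the ESC-2i libraries there was 0.262 (0.168 to 0.394). Libraries in serum thus ran from 0.565 to 1.24, and those in 2i medium from 0.103 to 2.69. Without ESC-FCS library 2, only 17 molecules remained and Cpsf2 no longer entered the comparison; without ESC-2i library 1 the log2 ratio was 3.17 and without ESC-2i library 2 it was 1.43. In bulk libraries such as the pools, fewer cells with a transcript and less of it per cell cannot be told apart.

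Cpsf3 (CPSF73; chr12:21285391-21315056), the endonuclease that makes the cut, had 26 and 32 molecules in ESC-2i (1.49 and 1.65), 20 and 27 in ESC-FCS (1.54 and 2.80), and 6 and 18 in NSC (0.752 and 2.50). The libraries of the 3 populations overlapped, and the NSC libraries were the furthest apart. NSC stood at 1.00 times ESC-2i (0.596 to 1.64) and ESC-FCS at 1.32 times (0.877 to 1.97). Fip1l1 (chr5:74535449-74598800), the CPSF subunit that contacts poly(A) polymerase, had 5 and 8 molecules in ESC-2i, 7 and 1 in ESC-FCS and 9 and 2 in NSC. Its levels of 0.287, 0.413, 0.537, 0.104, 1.13 and 0.277 overlapped between populations. The NSC level was 2.05 times that of ESC-2i, with an interval of 0.832 to 4.96.

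The 2 CstF subunits among the members were both called higher in NSC than in ESC-2i; Cstf1, the remaining subunit, is given with the wider lists. Cstf2 (CstF64; chrX:134059187-134086819), which binds the RNA downstream of the cut, gave 12 and 17 molecules in ESC-2i (0.688 and 0.877), 13 and 7 in ESC-FCS (0.998 and 0.726) and 16 and 9 in NSC (2.01 and 1.25). Both NSC libraries were above all 4 embryonic stem cell libraries. The pooled ratio was 2.09 against ESC-2i (1.17 to 3.70) and 1.87 against ESC-FCS (0.995 to 3.54). Against ESC-FCS the call was lost without NSC library 1 (log2 ratio 0.50, under 1.5-fold), and with the mean of single-cell levels (0.84) or reads (1.34) the libraries overlapped. By reads they also overlapped against ESC-2i (0.79). The ESC-2i pools, at 2.31 and 2.16, were above both NSC libraries, whereas the control cells, at 1.11 and 1.13, and the ESC-FCS pool, at 0.949, were below them. With these pools in place of the ESC-2i cells, the log2 ratio of Cstf2 in NSC against ESC-2i was −0.44, where the median of all genes was −0.59. Cstf2t, the intronless copy of Cstf2, was counted apart and had 20 molecules; reads that align to both are absent from the counts.

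Cstf3 (CstF77; chr2:104590523-104665429), the CstF scaffold, gave 8 and 9 molecules in ESC-2i (0.459 and 0.464), 5 and 9 in ESC-FCS (0.384 and 0.933) and 7 and 5 in NSC (0.877 and 0.694). Both NSC libraries were above both ESC-2i libraries, and the ESC-FCS libraries spanned them all. The ratio of NSC to ESC-2i was 1.71 on 12 and 17 molecules, and its interval, 0.746 to 3.80, included 1. With reads in place of molecules the log2 ratio was −0.56.

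The CFIm subunits differed widely in abundance. Nudt21 (CFIm25; chr8:94015496-94037031), which binds UGUA, had 7 molecules in ESC-2i, 8 in ESC-FCS but 4 in NSC, and so never reached 20 in a comparison of these cells. Its levels were 0.287 and 0.103, 0.384 and 0.311, and 0.125 and 0.416 in the 2 libraries of each. Both ESC-FCS libraries were above both ESC-2i libraries, on 15 molecules in all, and the NSC libraries lay on either side of both ESC-FCS libraries and of ESC-2i library 1. The ratio of ESC-FCS to ESC-2i was 1.86, with an interval of 0.588 to 6.02, so a 1.5-fold difference was not detectable at this depth. The control cells had 0.372 and 0.339 and the ESC-FCS pool 0.335, all within the range of the ESC-FCS cells. With these libraries in place of the ESC-FCS cells, Nudt21 entered and was called higher than in ESC-2i, as were 25.7% of all genes. With no minimum of molecules it was also called higher in ESC-FCS than in ESC-2i cells, as were 11.3% of all genes. The ESC-2i pools had 0.0417 and 0.0606, on 5 of 974282 molecules.

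Cpsf6 (CFIm68; chr10:117344673-117380015), the partner that Nudt21 binds as a dimer, had 16 and 27 molecules in ESC-2i (0.917 and 1.39), 30 and 13 in ESC-FCS (2.30 and 1.35) and 18 and 13 in NSC (2.26 and 1.80). Both NSC libraries were above both ESC-2i libraries, and ESC-FCS library 2 fell just under ESC-2i library 2. NSC stood at 1.75 times ESC-2i (1.07 to 2.84). Without ESC-2i library 1, the log2 ratio was 0.55, below 1.5-fold, and by reads it was 0.68 with libraries that overlapped. ESC-FCS stood at 1.63 times ESC-2i (1.04 to 2.54) without passing the order of libraries. The separate libraries had 2.75 and 3.28 in the control cells, 3.85 in the ESC-FCS pool, with 1.94 and 3.13 in the ESC-2i pools. All were above both ESC-2i libraries, and with the pools in their place the log2 ratio of NSC to ESC-2i was −0.32, beside −0.59 for all genes.

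Papola (chr12:105784694-105838944), the main nuclear poly(A) polymerase, had 26 and 26 molecules in ESC-2i (1.49 and 1.34), 25 and 14 in ESC-FCS (1.92 and 1.45) and 20 and 12 in NSC (2.51 and 1.66). The NSC libraries were above both ESC-2i libraries, and the ratio of 1.49 (0.930 to 2.36) was just under 1.5. It passed the rule when mitochondrial genes were left out of the totals (log2 ratio 0.63), without ESC-2i library 1 (0.65) and without NSC library 2 (0.83). With the ESC-2i pools in place of the ESC-2i cells it also passed, as higher in NSC. ESC-FCS and ESC-2i overlapped, with a ratio of 1.22 (0.783 to 1.88). In the separate libraries Papola lay at 1.93 and 1.02 in the control cells, 2.96 in the ESC-FCS pool, with 1.02 and 1.62 in the ESC-2i pools.

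Pabpn1 (chr14:54892500-54898169), which coats the growing tail in the nucleus, went the other way. It had 7 and 17 molecules in ESC-2i (0.401 and 0.877), 8 and 4 in ESC-FCS (0.614 and 0.415) and 2 and 1 in NSC (0.251 and 0.139). Both NSC libraries were below all 4 embryonic stem cell libraries. The ratio of NSC to ESC-2i was 0.303, with a counting interval of 0.0584 to 0.998 on 3 and 24 molecules, and that of NSC to ESC-FCS was 0.373 (0.0676 to 1.38), on 15 molecules in all. Without ESC-2i library 2 the gene no longer entered the comparison. The control cells had 1.26 and 1.13, the ESC-FCS pool 0.781 and the ESC-2i pools 0.209 and 0.465, so that 1 ESC-2i pool lay between the NSC libraries. An annotated gene, Gm20521, overlaps Pabpn1 on its strand and held 3 molecules inside it.

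Pabpc1 had 225 and 255 molecules in ESC-2i (12.9 and 13.1), 199 and 123 in ESC-FCS (15.3 and 12.8) and 84 and 92 in NSC (10.5 and 12.8). The libraries of the 3 populations lay within a narrow range. ESC-FCS stood at 1.09 times ESC-2i (0.944 to 1.26), NSC at 0.889 times ESC-2i (0.744 to 1.06) and NSC at 0.816 times ESC-FCS (0.675 to 0.983). None of the 3 intervals reached 1.5-fold. The separate libraries ran from 13.1 in the ESC-FCS pool to 19.5 in control library 1, with 16.9 and 17.5 in the ESC-2i pools. Processed copies of Pabpc1 exist in the genome, and only reads with a unique alignment were counted, so its level may be too low.

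In the separate libraries 9 members entered the comparison of ESC-FCS with ESC-2i medium, and Fip1l1 had equal levels in ESC-FCS and ESC-2i cells (within 0.01 on the log2 scale). Of the other 8, 3 had the same direction as in single cells. The median of all genes was −0.43 (log2) there. In these libraries 58.1% of 8569 genes were called, 19.3% higher and 38.8% lower in ESC-FCS, and 1 member was higher (Pabpn1, ratio 3.01, 1.86 to 4.91) while 2 were lower (Cpsf2 and Cstf2, the latter at 0.467, 0.327 to 0.652). Size factors by the median of ratios moved the median of all genes by at most −0.19, in NSC against ESC-2i. ESC-2i, ESC-FCS and NSC cells had 7.90%, 3.99% and 9.53% of their molecules from the ERCC spike-ins, RNA added in a fixed amount to each cell, so per spike-in molecule the median of all genes moved by 1.04 (log2) in ESC-FCS against ESC-2i, −0.30 in NSC against ESC-2i and −1.34 in NSC against ESC-FCS. This scale moves every gene of a comparison by the same amount, so where a member lay relative to the median of all genes was unchanged by it. The log2 ratio of Cstf2 in NSC against ESC-FCS was −0.44 there, which was 0.85 above that median. The members' medians there were 1.33, 0.38 and −1.24, beside 0.98, −0.35 and −1.29 for all genes.

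A wider list of 15 further genes of 3′ end processing and a list of 16 genes of tail binding and deadenylation set the members in their pathway. Between ESC-FCS and ESC-2i, 10 of the 15 could enter and 0 were called, and of the 16, 10 could enter and 1 was higher: Cnot8, a deadenylase of the CCR4-NOT complex, at 1.76 against 1.17 (ratio 1.51, 0.958 to 2.38). Of all genes, 15.2% were higher and 21.5% lower. The medians were −0.13 and −0.11, close to that of all genes. Between NSC and ESC-2i, 2 of 8 processing genes were higher and 1 lower, and 3 of 12 tail genes were higher and 0 lower. Among all genes 24.7% were higher and 29.3% lower, so the shares called higher were close to that of all genes. The lower gene was Cstf1, the remaining CstF subunit, with 1 molecule in NSC and 30 in ESC-2i, a ratio of 0.0808 (0.00198 to 0.486). Cstf1 therefore lay opposite to Cstf2 and Cstf3. The higher tail genes were Cnot6l (3.64, 1.37 to 10.3), Pan3 (3.23, 1.44 to 7.49) and Cnot6 (2.75, 1.29 to 5.91). Cnot6 and Cnot6l are the CCR4-type deadenylases, and Pan3 is the partner of the deadenylase Pan2. The medians were 0.29 and 0.24.

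Between NSC and ESC-FCS, 3 of 7 processing genes and 2 of 7 tail genes were higher and 0 were lower, where 26.3% of all genes were higher and 23.6% lower. Among the called genes Cnot6 had the largest ratio, 3.17 (1.30 to 8.49), followed by Wdr33, a CPSF subunit that touches the hexamer, at 2.24 (0.842 to 6.31). Cpsf7, the other large CFIm subunit, stood at 1.81 (0.841 to 3.97), and Cnot7, a further CCR4-NOT deadenylase, at 1.74 (0.748 to 4.12). The last 3 intervals include 1. The medians were 0.68 for the processing genes and −0.01 for the tail genes, beside 0.05 for all genes.

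The 1592 molecules of the members fell on 107 sites. By the position class in the files, 63.4% were at most 10 nt from an annotated end of a transcript, 14.6% up to 200 nt away, 13.1% elsewhere in a terminal exon, 4.65% downstream of the gene, 1.63% in an intron and 2.70% in an upstream exon. Over all genes the shares were 57.3%, 19.0%, 15.0%, 5.85%, 1.95% and 0.818%. The sum hides members that ended at a single place off the annotation they were classed by and others with many ends.

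**Figure D3:**
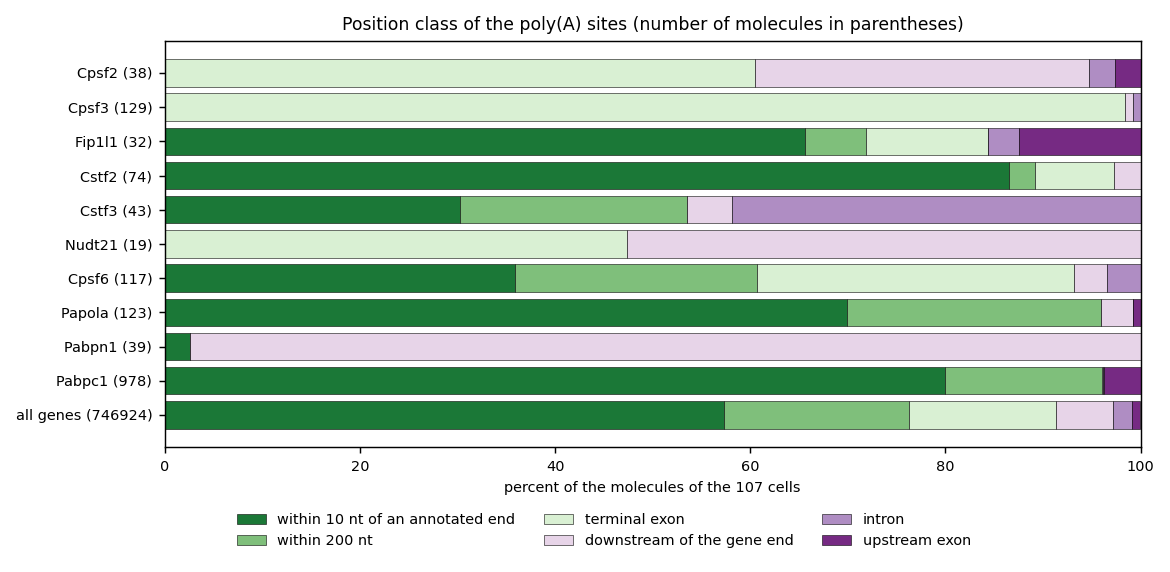
Share of the molecules of the 107 cells (x axis, percent) in each position class of the poly(A) site, for each gene and for all genes; the number of molecules is in parentheses. Cstf3 stands out with 41.9% in introns, and Pabpn1 has 97.4% and Nudt21 52.6% downstream of the gene end as classed in the files.

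Cpsf3, Cstf2 and Pabpn1 used mainly 1 site. At Cpsf3, 125 of 129 molecules (96.9%, 92.3 to 99.1) ended at chr12:21314832, 3 nt before an annotated end in GENCODE, and so did 100% of 41 control cell molecules, 100% of 55 in the ESC-FCS pool, and 96.6% of the 325 in the ESC-2i pools. At Cstf2, 64 of 74 (86.5%) ended at the gene end, with 93.1% in ESC-2i, 75.0% in ESC-FCS, 88.0% in NSC, 64.0% in the control cells, 64.7% in the ESC-FCS pool, with 75.2% in the ESC-2i pools. A Cstf2 site 2368 nt upstream held 42 of 218 molecules in the ESC-2i pools and 5 in the 107 single cells. At Pabpn1, 36 of 39 molecules (92.3%, 79.1 to 98.4) ended at chr14:54898915, and all 27 of the control cells and all 14 of the ESC-FCS pool were within 12 nt of it. The use of the unannotated Pabpn1 end was thus seen in each kind of library.

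Nudt21 and Cpsf2 each had further sites in the terminal exon. At Nudt21, the site shown above held 6 of 7 molecules in ESC-2i, 2 of 8 in ESC-FCS, with 2 of 4 in NSC. The remaining 6 molecules of ESC-FCS were at chr8:94019453, in a gene too shallow for a call of site use. The control cells had 7 of 8 at the site shown. At Cpsf2, the gene end held 13 of 38 molecules and several terminal exon sites together held 23. The most used of these was chr12:102003975 with 8, followed by chr12:102003443 with 5. In the ESC-2i pools chr12:102003975 held 94 of 240 and the gene end 66. At Fip1l1, 14 of 32 molecules ended at the site shown and 5 at chr5:74598781.

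Cpsf6 spread over 5 sites with at least 10 molecules. They hold 10, 24, 18, 17 and 16 of its 117 molecules and lie 0, 269, 456, 2021 and 4638 nt from the first. The second, shown above, held 35.5% of the molecules in NSC (19.2 to 54.6), 18.6% in ESC-2i and 11.6% in ESC-FCS. The fourth held 3.23% in NSC, 20.9% in ESC-2i, 16.3% in ESC-FCS, 15.2% in the control cells, 24.6% in the ESC-FCS pool, with 31.5% in the ESC-2i pools. The most distal site held 9.30% in ESC-2i, 16.3% in ESC-FCS, with 16.1% in NSC, and 33.3% of 66 molecules in the control cells and 21.7% of 69 in the ESC-FCS pool, but 3.23% (1.40 to 6.26) of 248 in the ESC-2i pools. The intervals of ESC-2i, ESC-FCS and NSC cells overlapped at each of the 5 sites. At the most distal site the interval of the control cells (22.2 to 46.0) lay just above that of ESC-2i cells (2.59 to 22.1), and that of the ESC-2i pools did not meet those of the control cells and the ESC-FCS pool.

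**Figure D4:**
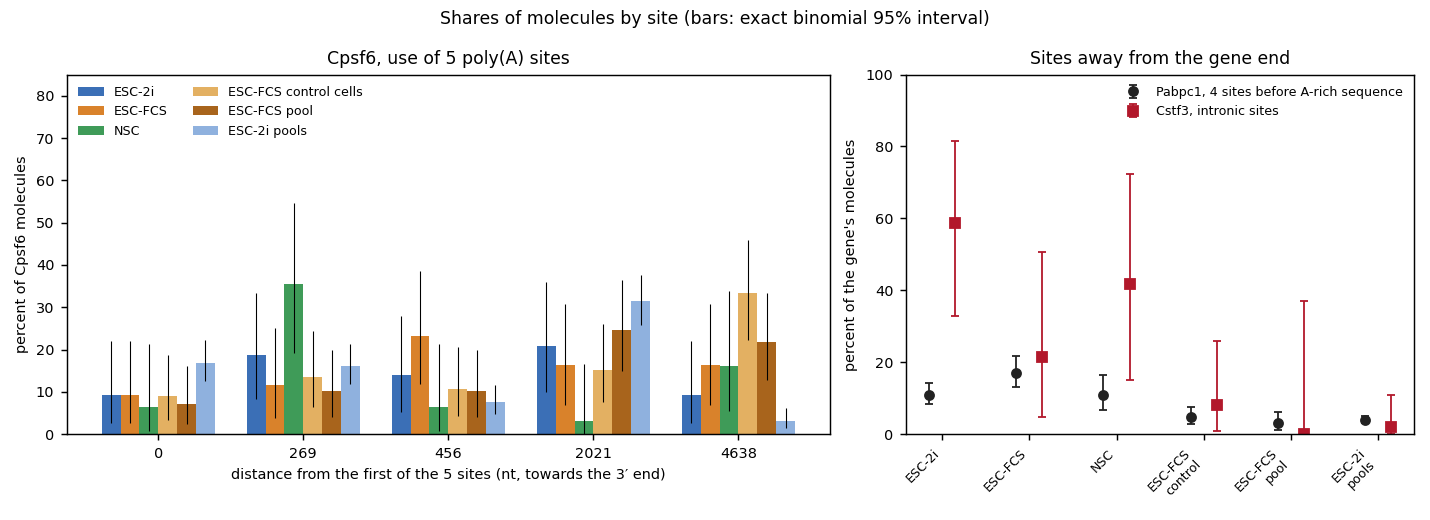
Left, percent of Cpsf6 molecules (y axis) at its 5 sites, placed by distance in nt from the first site (x axis, not to scale), in 6 groups of libraries; right, percent of Pabpc1 molecules at 4 sites that precede A-rich sequence and of Cstf3 molecules in introns, by group. Bars are exact binomial 95% intervals; at the most distal Cpsf6 site the ESC-2i pools have 3.23% and the control cells 33.3%.

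Papola had 3 such sites. The first, at the end of an annotated short transcript and 29236 nt before the last, held 40 of 123 molecules, and 2 sites 25 nt apart near the gene end held 25 and 34. The first site held 32.7% of molecules in ESC-2i (20.3 to 47.1), 28.2% in ESC-FCS (15.0 to 44.9), with 37.5% in NSC (21.1 to 56.3), and 37.1%, 13.2% and 15.5% in the control cells, the ESC-FCS pool and the ESC-2i pools. The site before the last has neither hexamer, and the window printed for the last site shows what follows it: 16 of the next 20 bases are A, and they include the AATAAA of the last site itself. The last site held 71.7% of 53 molecules in the ESC-FCS pool (57.7 to 83.2) and 12.4% of 129 in the ESC-2i pools, where a site at chr12:105836236 held 16.3% and had 1 molecule in the 107 cells. The site before the last held 23.1% of molecules in ESC-2i and in ESC-FCS, 12.5% in NSC and 24.0% in the ESC-2i pools, but 5.71% in the control cells and 3.77% in the ESC-FCS pool.

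Whether the members changed the use of their most distal site was asked of sites with at least 10 molecules and 10% of the gene, where a difference of at least 10 points in the same direction in all 4 pairs of libraries was called. Only Cpsf6 and Papola had 2 or more such sites, and 0 of the comparisons they entered was called, against 27.3% of 534 genes in ESC-FCS against ESC-2i, 40.4% of 324 in NSC against ESC-2i and 28.9% of 287 in NSC against ESC-FCS. The share was higher in 17.6%, 34.6% and 20.2% of these genes and lower in 9.74%, 5.86% and 8.71%. The distal share of Cpsf6 was 14.8% in ESC-2i (4.19 to 33.7) and 24.1% in ESC-FCS (10.3 to 43.5). The 2 ESC-FCS libraries were far apart, at 14.3% of 21 molecules and 50.0% of 8, and without library 2 the ESC-FCS share of 14.3% was below that of ESC-2i. Without library 1 the sites that passed the minimums also changed. The share was then 57.1% of 7 molecules, beside 19.0% of 21 in ESC-2i, under the 20 molecules set for a comparison. The NSC share of 26.3% (9.15 to 51.2) rested on 19 molecules and did not enter. That of Papola was 31.0% (17.6 to 47.1), 39.4% (22.9 to 57.9) and 33.3% (15.6 to 55.3). Without the A-rich site of Papola, an alternative chosen after the data were seen, the shares were 43.3%, 54.2% and 40.0%, and the difference of 10.8 points between ESC-FCS and ESC-2i passed the rule with intervals that overlap widely. With both end sites counted as 1, also chosen after the data were seen, the shares were 59.5%, 66.7% and 50.0%, and the 16.7 points by which NSC was below ESC-FCS passed it.

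Cstf3 had the largest share of molecules in introns among the members, 41.9%, against 1.95% over all genes. Intronic sites held 10 of 17 molecules in ESC-2i (58.8%, 32.9 to 81.6), 3 of 14 in ESC-FCS (21.4%, 4.66 to 50.8), with 5 of 12 in NSC (41.7%, 15.2 to 72.3). They held 2 of 25 in the control cells (8.00%, 0.984 to 26.0), 0 of 8 in the ESC-FCS pool (up to 36.9%) and 1 of 49 in the ESC-2i pools (2.04%, 0.0517 to 10.9). The intervals of ESC-2i and NSC lay above that of the ESC-2i pools, and that of ESC-FCS overlapped it. The 18 molecules lay on 10 sites, the most used of which, chr2:104595192 and chr2:104602913, had 5 and 4 molecules, each in as many cells. At the gene end lay 16 molecules, and 6 ended at chr2:104609425, an annotated short transcript that has ATTAAA in the 30 bases before the cut. The sequence after the intronic sites was not read here.

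Pabpc1 had 808 of 978 molecules (82.6%, 80.1 to 84.9) at its main site. The share was 85.0% in ESC-2i, 77.3% in ESC-FCS, with 85.8% in NSC, and 92.9%, 95.7% and 94.3% in the control cells, the ESC-FCS pool and the ESC-2i pools. The 4 sites with neither hexamer and A-rich sequence after them, 1 of them in an upstream exon, held 11.0% of Pabpc1 molecules in ESC-2i (8.38 to 14.2), 17.1% in ESC-FCS (13.1 to 21.6), with 10.8% in NSC (6.63 to 16.3). The control cells had 4.82% (2.93 to 7.43), the ESC-FCS pool 2.99% (1.21 to 6.07) and the ESC-2i pools 4.00% (3.11 to 5.05). Every one of the 6 libraries of the main cells, at 7.45% to 19.1%, was above all 3 of these groups. These sites remained after the filter on A-rich sequence applied before deposition. Their part in the levels was not tested, other than by leaving them out, chosen after the data were seen: the levels were then 11.6, 11.8 and 10.3, and ESC-FCS stood at 1.02 times ESC-2i.

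Cell-to-cell spread was compared with the spread that the cells' total molecules and counting alone would give (a ratio of 1). Over 17 pairs of a member and a population with at least 20 molecules, the ratio ran from 0.588 (Papola in NSC) to 1.86 (Pabpc1 in ESC-2i), with a median of 1.11, and 8 of 17 were above the median of all genes in that population, which was 1.13 to 1.15. Pabpc1 in ESC-2i had 4 to 40 molecules per cell with a median of 14, and 6.78% of 3438 genes had a larger ratio. This ratio grows with the count at the same relative spread, and the 3438 genes were not matched to Pabpc1 in abundance. In ESC-FCS Pabpc1 had 1 to 27 molecules with a median of 8 (ratio 1.48) and in NSC 0 to 15 with a median of 4 (1.28). All 33 ESC-2i and 33 ESC-FCS cells and 39 of 41 NSC cells held at least 1 molecule of it. For the other members the median cell held 0 to 2, so a cell without a molecule says little of its expression: 22 of 41 NSC cells held Papola, and depth alone gave 20.9.

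**Figure D5:**
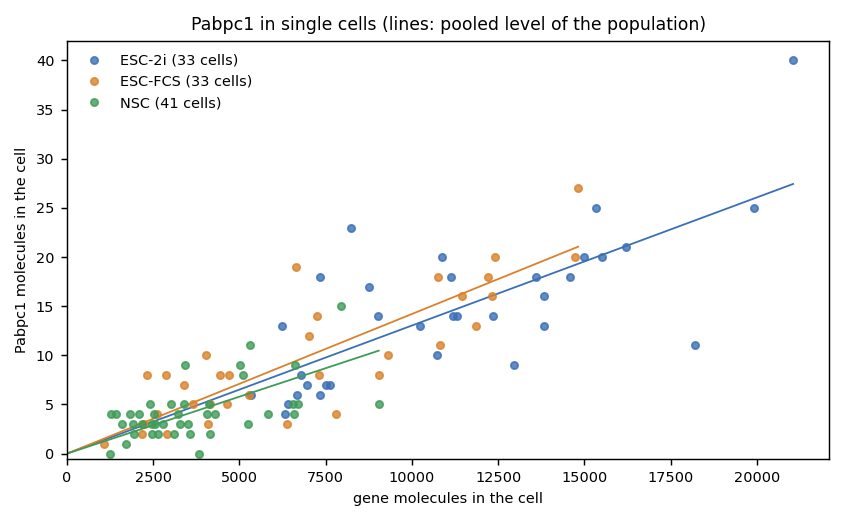
Pabpc1 molecules in each cell (y axis) against the gene molecules of the cell (x axis) in 33 ESC-2i, 33 ESC-FCS and 41 NSC cells; each point is a cell and each line the pooled level of its population. The cells scatter on both sides of the lines, and the highest cell, with 40 molecules, is an ESC-2i cell.

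Among the members only Pabpc1 had the 500 molecules set for a search of similar patterns over the 8 libraries of single cells. Of 224 genes with that many, the most alike were Hspa4, an Hsp110-type chaperone (Pearson r = 0.90), Rpl5, a ribosomal protein (0.89), and Ywhaq, a 14-3-3 protein (0.88). These are descriptions over 8 points that share populations and depth.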

How the data were processed

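Each sample was 1 sorted cell or 1 pool of 48 cells. The authors demultiplexed the reads, aligned them with GSNAP to GRCm38 (Ensembl annotation), kept unique alignments, removed A-rich reads and sites before A-rich genomic sequence, assigned 3′ ends to genes up to 20 kb downstream, merged molecular identifiers at a Hamming distance of 1 and sites within 12 nt, and deposited counts of molecules per gene and, per sample, counts of molecules and reads per site. The labels name HTSeq and R 3.0.2. The header names for site class and distance are swapped in the site files. The gene table of the single cells differed in 4 entries from the sums of the site files. No column of fold changes or p-values was used.

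Counts were summed over cells with at least 1000 gene molecules and divided by their total (Python 3.11.15, pandas 2.3.3, scipy 1.17.1). The design implies 3 comparisons, with each population as 1 sample and therefore no test. Intervals (95%) are exact Poisson for levels, exact Clopper-Pearson for shares, and from the exact conditional binomial for ratios; they cover counting error only, and separate cultures are not named in the labels. Genes entered with at least 20 molecules in the 2 populations. A group at 0 was set to a floor of 3 molecules. Sites of separate libraries were matched within 12 nt. Positions and windows came from GENCODE M21, of the same build; 19321 of 19736 identifiers had a symbol. The members, lists, rules and tests were chosen with earlier results of these data known. Named were all members, up to 4 further called pathway genes per comparison by size of ratio, sites with at least 10 molecules or the most used one, and the 3 genes most like a member with at least 500 molecules. The procedure was tested on simulated data. Spread ratios are the variance about the value expected from each cell's total, divided by that value. No sample had counts identical to another, and the 2 ESC-2i pools differed beyond sampling noise (chi-square per degree of freedom 5.78); 24 cell barcodes were reused between libraries but never within one.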

Additional observations from a re-analysis of the deposited data

How the results depend on the processing

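No paired analysis was possible because the results come from no test and the library numbers name no shared culture. Of 331 values of single genes under the alternatives, 281 moved by less than the SD of that gene's ratio over pairs of libraries and 50 by more. The sign changed for 53, of which 6 belonged to called members. These 6 were Cstf2 in NSC against ESC-FCS per spike-in molecule (log2 ratio −0.44, where all genes moved by −1.34), Cstf3 in NSC against ESC-2i by reads (−0.56), and, with the ESC-2i pools in place of the cells, Cpsf2 in ESC-FCS against ESC-2i (−1.41, and −1.93 with both kinds of separate library), Cpsf6 in NSC against ESC-2i (−0.32) and Cstf2 in NSC against ESC-2i (−0.44). Counts and medians are given for ESC-FCS against ESC-2i, NSC against ESC-2i and NSC against ESC-FCS, in this order, where the main counts were 1, 4 and 1, and percentages are the share of all genes called under the same setting. Per spike-in molecule the counts of called members were 7, 1 and 6 (63.5%, 54.5% and 72.6%) and the medians 1.33, 0.38 and −1.24. Reads gave 2, 1 and 0 (37.9%, 51.4% and 49.5%), with a median of 0.036 in the second, beside −0.08 for all genes. A minimum of 50 molecules gave 0, 2 and 0 (33.4%, 53.1% and 47.0%). Size factors by the median of ratios gave 2 in the first (36.9%), and totals without mitochondrial genes gave 5 in the second (54.0%). The mean of single-cell levels gave 2 in the first (37.3%) and 2 in the third (50.3%), no minimum also gave 2 (22.5%) and 2 (26.9%), and 2-fold gave 2 in the second (40.6%) and 0 in the third (36.7%). The control cells and ESC-FCS pool in place of ESC-FCS cells gave 4 (44.1%, median 0.74) in the first and 3 (52.3%, median −0.22) in the third. All genes had medians of 0.21 and −0.27 under this setting. The ESC-2i pools gave 4 (66.3%, median −0.42) in the first and 4 (65.0%, median −0.44) in the second. With the pools the medians of all genes were lower still, at −0.78 and −0.59. The 4 called in the second were Cpsf2, Cpsf3, Cstf3 and Papola, 2 higher and 2 lower in NSC, where the main calls were Cpsf6, Cstf2, Cstf3 and Pabpn1. Both separate kinds gave 3 in the first (58.1%). Leaving out 1 library at a time gave counts of 2 to 3 (43.6% to 50.5%), 3 to 7 (58.4% to 64.9%) and 1 to 4 (56.5% to 59.4%), and medians of 0.12 to 0.43, 0.55 to 0.88 and −0.14 to 0.25. A call then rests on 2 pairs of libraries in place of 4. For the distal site share, where 0 was called, reads gave 2 (Papola in ESC-FCS against ESC-2i and in NSC against ESC-FCS, 31.5% and 29.6% of all genes), lower site minimums (5 molecules and 5%) gave 1 (Cpsf6 in NSC against ESC-2i, 36.5%), leaving out 1 library gave 0 to 1 (Papola in ESC-FCS against ESC-2i without ESC-FCS library 2, 36.2%), and the 2 alternatives for Papola, chosen after seeing the data, gave 1 each. The median spread ratio ran from 1.01 to 1.20 without 1 library. The cause of these shifts was not tested. Depth limits Nudt21, Cpsf2, Fip1l1, Cstf3 and Pabpn1, which had under 50 molecules each in the 107 cells.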
